A study of Mus musculus with 6 samples.

Results

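The ERK pathway feedback genes Dusp4, Dusp5, Dusp6, Spry1, Spry2, Spry4, Spred1, Etv4, Etv5 and Phlda1 were followed in D4M-3A cells, a murine melanoma line with an activating Braf mutation. These 10 genes were taken by name, as transcriptional readouts of ERK activity, from 43043 listed genes, and all 10 were among the 14419 genes with enough reads to be tested. Sequenced RNA came from 3 samples of control cells (Ctrl) and 3 samples of cells with a knockout of Nfkbiz (Nfkbiz KO), to ask what constitutive IκBζ, the transcriptional co-regulator encoded by Nfkbiz, does in melanoma cells. The construct for CRISPR-Cas9 was empty in Ctrl cells and directed against Nfkbiz in Nfkbiz KO cells. Both were transduced with lentivirus, selected with puromycin and grown in culture medium without further treatment. The study describes its replicates as independent experiments. Whether the knockout cells were a pool or a clone is not given in the sources used here, so the spread between samples covers repeated cultures of these cells and not separate knockouts.

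In the RAS-RAF-MEK-ERK cascade, receptor tyrosine kinases load RAS with GTP, RAS activates RAF kinases, RAF phosphorylates MEK, and MEK phosphorylates ERK. Mutant BRAF drives the cascade without RAS. Active ERK induces transcription of its own inhibitors, which are therefore read as a record of pathway output: DUSP phosphatases remove the activating phosphates from ERK or related kinases, Sprouty and Spred proteins act between the receptor and RAF, and the ETS factors Etv4 and Etv5 and the protein Phlda1 are induced alongside them.

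Levels are given as TPM, a read value per transcript length that sums to 1000000 in each sample. TPM was not normalized further between samples, so its differences between groups need not match those from the counts. Differences are log2 fold changes of Nfkbiz KO against Ctrl from the read counts, with p from edgeR's quasi-likelihood test adjusted by the Benjamini-Hochberg method over all genes tested. A gene passed at an adjusted p of 0.05 or less. Of the 10 feedback genes, 5 passed as higher in Nfkbiz KO (Dusp5, Spry1, Spry2, Spry4 and Spred1), 1 passed as lower (Etv4) and 4 did not pass (Dusp4, Dusp6, Etv5 and Phlda1). Among all genes tested, 18.2% passed as higher, 18.4% as lower and 36.6% in either direction. The median log2 fold change was 0.16 over the feedback genes and -0.015 over all genes tested. In a bulk sample, fewer cells that express a gene and less of its RNA per cell cannot be told apart.

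No feedback gene reached the thresholds that the study used (more than a 2-fold change, a difference over 4, read here as TPM since no unit is given, and an adjusted p not above 0.05), which 1.79% of all genes tested did. At the study's less stringent threshold, a fold change of at least 1.5 with p of 0.1 or less, taken here as an adjusted p, 1 feedback gene was counted, Spry1, against 12.6% of all genes. In normalized read counts scaled to library size (CPM), the Ctrl and Nfkbiz KO values of 8 feedback genes did not overlap. In 6 of them Nfkbiz KO was the higher group and in 2 the lower, against 48.4% of all genes without overlap, 23.9% higher and 24.5% lower. For such a gene, a two-sided exact permutation test gives p = 0.1, below which a design of 3 and 3 samples cannot go. The exact p was 0.5 for Dusp4 and 0.3 for Phlda1.

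**Figure D1:**
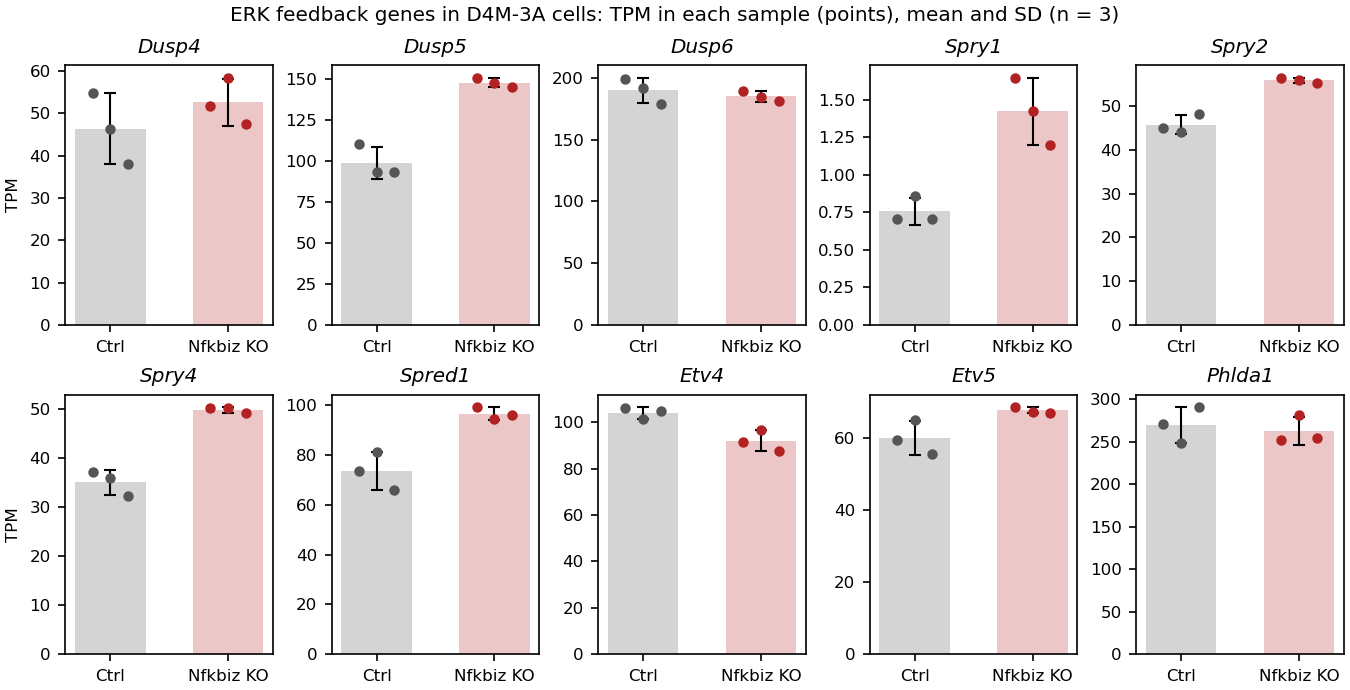
TPM of the 10 ERK feedback genes in each sample (points), with the mean (bar) and SD (line) of the 3 Ctrl and 3 Nfkbiz KO samples. The Nfkbiz KO points of Dusp5, Spry1, Spry2, Spry4, Spred1 and Etv5 lie above all Ctrl points, those of Etv4 lie below, and the points of Dusp4, Dusp6 and Phlda1 overlap.

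The libraries held between 32219900 and 44927203 gene reads, and 96.5% to 96.9% of them mapped to a unique place. Ctrl samples varied more among themselves than Nfkbiz KO samples: the median coefficient of variation of TPM over all genes tested was 9.31% in Ctrl and 5.08% in Nfkbiz KO. Over the feedback genes it was 7.85% and 2.43%, and it was smaller in Nfkbiz KO for 8 of the 10, as it was for 9924 of the 14419 genes tested. Ctrl replicate 1 stood apart in the ribosomal RNA gene Rn18s-rs5, its highest gene at 49321 TPM, whereas the highest gene of each other sample was at 14358 to 17673 TPM. Nfkbiz had 69.1, 75.2 and 63.4 TPM in Ctrl and 34.8, 34.7 and 35.1 TPM in Nfkbiz KO, so its RNA was lowered but not lost (log2 fold change -0.98, adjusted p = 5.98e-08, edgeR). The study checked depletion of the IκBζ protein in its D4M-3A cells by immunoblot, which RNA levels do not show.

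The label of melanoma cells was set against marker genes. Of 7 melanocyte lineage genes, Sox10 and Tyr had 0 reads in every sample, Mlana, Tyrp1 and Dct had 3 reads or fewer in any sample, and neither Mitf nor Pmel passed the test. A count of 0 allows up to 0.0668 to 0.0931 CPM, counting error only. Together the 7 genes amounted to 1.11 to 1.74 TPM in Ctrl and 1.27 to 1.68 TPM in Nfkbiz KO, so the RNA did not show a pigmented melanocyte program in either group. Summed leukocyte markers (at most 0.0643 TPM) and keratinocyte markers (at most 0.154 TPM) were near 0. Of 5 fibroblast markers, Lum and Thy1 were near 0, while Col1a1, Col1a2 and Dcn passed as lower, and the sum of the list was 549 to 616 TPM in Ctrl and 435 to 472 TPM in Nfkbiz KO. Of 4 endothelial markers, Cdh5 passed as higher (log2 fold change 1.34), Pecam1 did not pass and Kdr and Tek had too few reads. That list summed to 0.55 to 0.827 TPM in Ctrl and 1.32 to 1.85 TPM in Nfkbiz KO. The part of either list in the values of the feedback genes was not tested.

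Among the phosphatases, Dusp5, a nuclear phosphatase specific for ERK, was higher in the knockout cells. Dusp5 had 110.1, 93.0 and 93.2 TPM in Ctrl replicates 1, 2 and 3 and 151, 148 and 145 TPM in Nfkbiz KO replicates 1, 2 and 3. The groups did not overlap, and the highest Ctrl value was that of replicate 1. The group means were 98.8 ± 9.82 and 148 ± 2.91 TPM (SD, n = 3), and the read counts gave an increase of 40.5% (log2 fold change 0.49, SE 0.068, adjusted p = 0.000126 by edgeR). Of the Dusp5 reads, 88.3% mapped uniquely.

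Dusp6, a cytoplasmic phosphatase that is likewise specific for ERK, had 199, 192 and 179 TPM in Ctrl and 189.7, 185 and 181 TPM in Nfkbiz KO. These TPM values overlapped, with means of 190.0 ± 10.4 and 185 ± 4.35 TPM (SD, n = 3). In CPM, Dusp6 was at 189, 174 and 178 in Ctrl and at 167, 164 and 162 in Nfkbiz KO, so that all Nfkbiz KO values lay below all Ctrl values on that scale. The log2 fold change of the counts was -0.14 (95% interval -0.25 to -0.02, adjusted p = 0.0609, edgeR), which did not pass. It passed without Ctrl replicate 2 (-0.15, adjusted p = 0.0413), without Ctrl replicate 3 (-0.15, adjusted p = 0.0215) and when only genes with at least 1 CPM in 3 samples were tested (-0.14, adjusted p = 0.0499). On log2(TPM + 1), limma gave -0.04 (adjusted p = 0.644).

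Dusp4, a nuclear phosphatase that acts on ERK and on the stress kinases, had 54.8, 46.3 and 37.9 TPM in Ctrl and 51.7, 58.4 and 47.5 TPM in Nfkbiz KO. The groups overlapped, and Dusp4 had the widest spread among Ctrl samples of the 10 genes, a coefficient of variation of 18.2%. Its log2 fold change was 0.10 (95% interval -0.12 to 0.32, adjusted p = 0.486, edgeR). The TPM of the 3 phosphatase genes together was 364, 331 and 309.8 in Ctrl and 392, 391 and 374 in Nfkbiz KO. Dusp5 made up 30.2%, 28.1% and 30.1% of that sum in Ctrl and 38.4%, 37.8% and 38.8% in Nfkbiz KO. That share was higher in every Nfkbiz KO sample than in any Ctrl sample, and it was not tested.

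The bases upstream of Dusp5 and Dusp6 are shown because both encode ERK-specific phosphatases while their RNAs did not move alike. Of the 10 feedback genes, 6 had an entry in the RefSeq promoter table of build GRCm38.p6, with 7 start sites in all. The 250 bases before each start were searched on both strands for the ETS core CGGAAG, the AP-1 motif TGANTCA, the CArG box bound by SRF and an NF-κB site. Capitals mark the matches, an ETS core on the minus strand in Dusp6 and CArG boxes in Dusp5. The Dusp5 window is chr19:53528895-53529144 and the Dusp6 window chr10:99262981-99263230, both on the plus strand.
Dusp5: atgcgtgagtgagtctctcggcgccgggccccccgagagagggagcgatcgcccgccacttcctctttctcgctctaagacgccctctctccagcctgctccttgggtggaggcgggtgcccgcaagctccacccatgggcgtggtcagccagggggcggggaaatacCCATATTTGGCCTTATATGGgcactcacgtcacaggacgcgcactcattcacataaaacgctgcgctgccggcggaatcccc
Dusp6: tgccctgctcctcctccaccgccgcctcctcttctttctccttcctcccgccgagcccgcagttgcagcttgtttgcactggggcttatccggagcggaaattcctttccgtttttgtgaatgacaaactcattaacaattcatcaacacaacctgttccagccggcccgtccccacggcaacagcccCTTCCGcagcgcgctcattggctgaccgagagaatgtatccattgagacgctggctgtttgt
Dusp5 held 2 CArG boxes directly beside each other, from base -82 to -73 and from base -72 to -63 before the start. A CArG box was found in 1.47% of all 32851 windows. The ETS core of Dusp6 lay from base -62 to -57, and 13.6% of all windows held that motif. No AP-1 motif and no match to the NF-κB pattern searched was found in the 7 windows of the feedback genes, against 6.75% and 7.25% of all windows. Looser forms of the NF-κB site were not searched, so these windows may still hold such a site. The windows of Spry1, Spry2 and Etv5 had no match. These matches are a description of letters. Dusp4, Spry4, Etv4 and Phlda1 are named only.

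**Figure D2:**
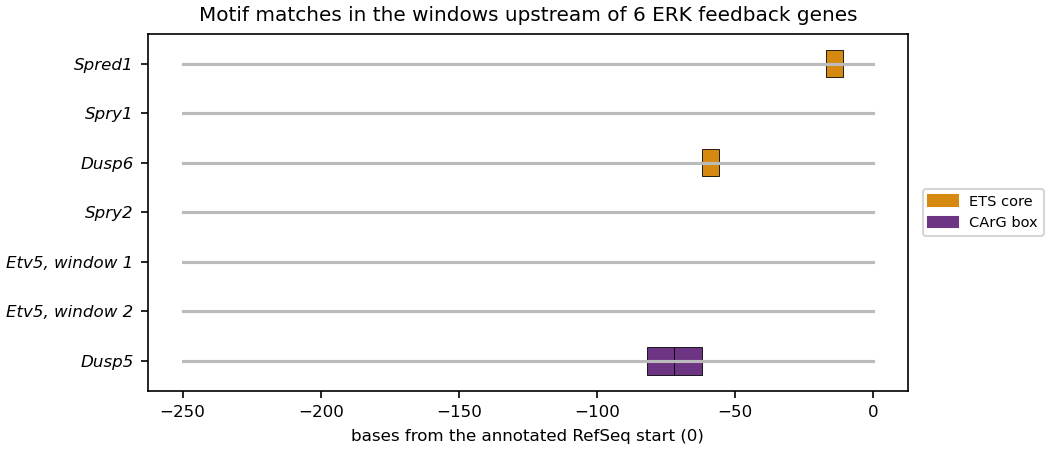
Position of motif matches, in bases before the annotated start, in the 7 upstream windows of 6 feedback genes. The CArG boxes of Dusp5 lie between bases -82 and -63, the ETS cores of Dusp6 and Spred1 between -62 and -57 and between -17 and -12.

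The 4 Sprouty and Spred genes among the feedback genes passed as higher in the knockout cells, and their groups did not overlap. Among all genes tested, 18.2% passed as higher, and 23.9% were higher without overlap in CPM. Outside the feedback genes, Spred3 passed as lower (log2 fold change -0.35) and Spred2 did not pass (-0.0027). Spry1 lost its call under 7 of the 16 other settings and Spry2 under 4, while Spry4 and Spred1 kept theirs. Spry4, an inhibitor of receptor-driven RAS and RAF activation, had 37.2, 35.9 and 32.3 TPM in Ctrl and 50.3, 50.3 and 49.2 TPM in Nfkbiz KO. Its mean went from 35.1 ± 2.55 to 49.9 ± 0.585 TPM (SD, n = 3), and the counts gave an increase of 32.5% (log2 fold change 0.41, SE 0.059, adjusted p = 0.000175, edgeR). The Spry4 locus is overlapped on the other strand by the long non-coding RNA 9630014M24Rik, which had 835 reads over all 6 samples, and the counting did not use strand, so reads of the pair cannot be fully told apart. Spry4 itself had between 1881 and 3018 reads in each sample.

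Spred1, which recruits the RAS GTPase-activating protein neurofibromin to the membrane, had 73.7, 81.3 and 65.9 TPM in Ctrl and 99.3, 94.5 and 95.9 TPM in Nfkbiz KO. The lowest Nfkbiz KO value lay above the highest Ctrl value, that of replicate 2. Means were 73.6 ± 7.71 and 96.6 ± 2.43 TPM (SD, n = 3), an increase of 21.7% in counts (log2 fold change 0.28, SE 0.057, adjusted p = 0.00212, edgeR). Its upstream window, chr2:117120821-117121070 on the plus strand of GRCm38.p6, is shown for the ETS core in capitals near its end.
Spred1: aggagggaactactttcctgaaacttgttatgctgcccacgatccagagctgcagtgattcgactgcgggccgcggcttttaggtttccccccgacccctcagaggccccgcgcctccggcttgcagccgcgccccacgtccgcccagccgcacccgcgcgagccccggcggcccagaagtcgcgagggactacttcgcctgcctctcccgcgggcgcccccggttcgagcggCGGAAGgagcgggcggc
The ETS core lay from base -17 to -12 before the start of Spred1.

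Spry2, a Sprouty protein that restrains ERK signalling and is itself induced by it, had 44.99, 44.2 and 48.3 TPM in Ctrl and 56.6, 55.9 and 55.3 TPM in Nfkbiz KO. The means were 45.8 ± 2.20 and 55.9 ± 0.638 TPM (SD, n = 3), and the counts gave an increase of 16.9% (log2 fold change 0.23, SE 0.068, adjusted p = 0.0201, edgeR). Spry2 passed without Ctrl replicate 2 (0.19, adjusted p = 0.0498) and without Ctrl replicate 3 (0.30, adjusted p = 0.00098). It no longer passed without Ctrl replicate 1 (0.20, adjusted p = 0.0748) or without Nfkbiz KO replicate 1, 2 or 3 (0.24, 0.21 and 0.22, adjusted p = 0.0504, 0.0807 and 0.0696).

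Spry1 was hardly expressed. It had 0.702, 0.860 and 0.703 TPM in Ctrl and 1.65, 1.42 and 1.20 TPM in Nfkbiz KO, from 22, 28 and 27 reads and from 43, 46 and 45 reads. Every Nfkbiz KO value was above every Ctrl value, but these few reads left the widest error of the 10 genes: log2 fold change 0.78 with a 95% interval of 0.21 to 1.35 (adjusted p = 0.0352, edgeR). Spry1 did not pass with DESeq2 (0.79, adjusted p = 0.0955), without Ctrl replicate 1 or 3 (0.75 and 0.74, adjusted p = 0.0799 and 0.0833) or without Nfkbiz KO replicate 1, 2 or 3 (0.68, 0.78 and 0.88, adjusted p = 0.128, 0.0891 and 0.0530). With the replicate number as a block, its adjusted p was 0.0581. Together the 4 Sprouty and Spred feedback genes had 157, 162 and 147 TPM in Ctrl and 208, 202 and 202 TPM in Nfkbiz KO. Spry1 was a minute part of these sums.

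Of the ETS factors of the PEA3 family, Etv4 passed as lower and Etv5 did not pass. Etv4 had 106, 101 and 105 TPM in Ctrl and 91.4, 96.8 and 87.8 TPM in Nfkbiz KO. All Nfkbiz KO values lay below all Ctrl values, with means of 104 ± 2.53 and 92.0 ± 4.51 TPM (SD, n = 3). In counts Etv4 fell by 18.5% (log2 fold change -0.30, SE 0.064, adjusted p = 0.00314, edgeR), and it was the only one of the 10 genes to pass as lower. On TPM the difference was smaller, -0.18 on log2(TPM + 1) with adjusted p = 0.0419 and -0.18 on log2(TPM + 0.1) with adjusted p = 0.0529, both from limma.

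Etv5, its close relative, had 59.3, 64.9 and 55.5 TPM in Ctrl and 68.5, 67.2 and 66.9 TPM in Nfkbiz KO. The groups did not overlap, with means of 59.9 ± 4.73 and 67.5 ± 0.851 TPM (SD, n = 3), but the log2 fold change of 0.08 did not pass (95% interval -0.03 to 0.19, adjusted p = 0.255, edgeR). The ratio of Etv4 to Etv5 in TPM was 1.79, 1.56 and 1.89 in Ctrl and 1.33, 1.44 and 1.31 in Nfkbiz KO, lower in every Nfkbiz KO sample than in any Ctrl sample. The difference between the changes of these genes was not tested.

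Phlda1, a pleckstrin homology-like protein induced by growth factors, had the highest level of the 10 genes, 270.3, 248 and 291 TPM in Ctrl and 252, 281 and 254 TPM in Nfkbiz KO. The groups overlapped, and 75.9% of its reads mapped uniquely. The means were 269.8 ± 21.1 and 262 ± 16.3 TPM (SD, n = 3), and the log2 fold change was -0.15 (95% interval -0.32 to 0.03, adjusted p = 0.189, edgeR). Without Ctrl replicate 2, which was the lowest Ctrl sample, Phlda1 passed as lower (-0.23, adjusted p = 0.0233).

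**Figure D3:**
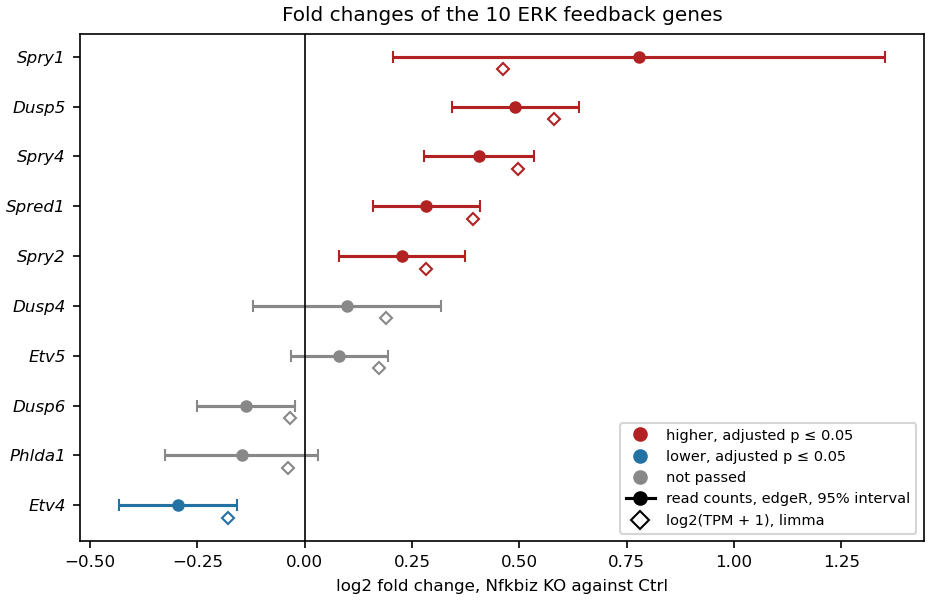
log2 fold changes (x axis) of the 10 feedback genes in Nfkbiz KO against Ctrl, from read counts with edgeR (filled circles with 95% intervals) and from log2(TPM + 1) with limma (open diamonds). Spry1, Dusp5, Spry4, Spred1 and Spry2 lie above 0 at 0.23 to 0.78, Etv4 lies below at -0.30, and grey marks the genes that did not pass.

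In order of TPM, which allows levels of different genes to be set side by side, the Ctrl samples ran from Phlda1 (269.8) through Dusp6 (190.0), Etv4 (104), Dusp5 (98.8), Spred1 (73.6), Etv5 (59.9), Dusp4 (46.3), Spry2 (45.8) and Spry4 (35.1) to Spry1 (0.755). The ranges of neighbours overlapped for Etv4 and Dusp5 and for Dusp4 and Spry2. In Nfkbiz KO the order was Phlda1 (262), Dusp6 (185), Dusp5 (148), Spred1 (96.6), Etv4 (92.0), Etv5 (67.5), Spry2 (55.9), Dusp4 (52.5), Spry4 (49.9) and Spry1 (1.42). Here the ranges overlapped for Spred1 and Etv4, for Spry2 and Dusp4 and for Dusp4 and Spry4. Etv4 thus went from level with Dusp5 in Ctrl to below it in every Nfkbiz KO sample.

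Read counts and TPM did not give quite the same fold changes. The counts hold reads outside exons, since 2105 to 2271 genes per sample had reads and an exon-based value of 0. The counts were also normalized between samples, while TPM was not. The median log2 fold change of all genes tested was -0.015 from counts and 0.06 from log2(TPM + 1), and the cause of this shift was not tested. On that TPM scale the fold changes were 0.58 for Dusp5, 0.50 for Spry4, 0.46 for Spry1, 0.39 for Spred1 and 0.28 for Spry2, and all 5 passed with limma. Apart from Spry1, each feedback gene had a higher log2 fold change on that scale than from counts. Dusp5, Spry4 and Spred1 kept their call under each of the 16 other settings tried.

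The annotation of GRCm39, matched by symbol, places these protein-coding genes on several chromosomes. Dusp4 lies at chr8:35274442-35287048, Dusp5 at chr19:53517532-53530862, Dusp6 at chr10:99086564-99103361, Spry1 at chr3:37693897-37698755, Spred1 at chr2:116951524-117018277 and Phlda1 at chr10:111342147-111344506, all on the plus strand. Spry2 lies at chr14:106128766-106136446, Spry4 at chr18:38719300-38736025, Etv4 at chr11:101660568-101676197 and Etv5 at chr16:22200052-22259662, all on the minus strand. Dusp6 and Phlda1 share a chromosome but not a neighbourhood. Apart from the Spry4 locus, the overlapping non-coding genes that were counted had at most 24 reads per locus over all samples. Overlapping genes of this annotation that were not among the listed genes have no count, so reads from them are not known.

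The rest of the pathway was followed in 5 lists with 84 genes, of which 75 were tested. In these lists 23 genes passed as higher, 15 as lower and 37 did not pass, and their log2 fold changes had a median of 0.05. On log2(TPM + 1) with limma, the split was 22 higher and 5 lower, and over all genes tested it was 2971 higher and 1310 lower in place of 2627 and 2647. These alternative counts differ from the main ones in both the scale and the test. The main counts of each list below stand against 18.2% of all genes tested that passed as higher, 18.4% as lower and 36.6% in either direction.

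Relatives of the feedback genes moved in both directions. Of 11 tested genes of the DUSP, Sprouty, Spred, PEA3 and PHLDA families outside the 10, 3 passed as higher (Dusp1, Dusp7 and Dusp10), 2 as lower (Dusp8 and Spred3) and 6 did not pass, with a median of -0.0027. Dusp10, a phosphatase of the stress kinases p38 and JNK, had 16.9, 19.0 and 22.6 TPM in Ctrl and 32.2, 34.5 and 32.9 TPM in Nfkbiz KO (log2 fold change 0.61, SE 0.092). Dusp7, an ERK phosphatase closely related to Dusp6, had 98.7, 93.1 and 95.3 TPM in Ctrl and 131, 138 and 133 TPM in Nfkbiz KO (log2 fold change 0.37, SE 0.059). Spred3 was lower, from 30.1 ± 2.01 to 25.3 ± 1.11 TPM (log2 fold change -0.35), in contrast to Spred1. Dusp8 was low at 5.98 ± 0.741 and 5.05 ± 0.186 TPM (log2 fold change -0.31), and it lost its call without any 1 of 5 samples, all but Ctrl replicate 3 (adjusted p = 0.0547 to 0.112).

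Other genes that ERK induces also moved in both directions. Of 15 such genes, 7 passed as higher (Egr1, Fosl1, Myc, Ccnd1, Epha2, Plaur and Emp1), 4 as lower (Ier2, Ier3, Epha4 and Lif) and 4 did not pass, with a median of 0.21. Ier2 lost its call in 5 of the 16 other settings, among them log2(TPM + 1) (adjusted p = 0.170, limma). Of the reads on Fosl1, 50.3% mapped uniquely, and its log2 fold change was 0.35 from all reads and 0.31 from unique reads (adjusted p = 0.00266, edgeR). Epha2, an ephrin receptor, had 158, 149 and 126 TPM in Ctrl and 218, 218 and 208 TPM in Nfkbiz KO (log2 fold change 0.44, SE 0.066). Emp1, an epithelial membrane protein, had 353, 406 and 347 TPM in Ctrl and 526, 504 and 533 TPM in Nfkbiz KO (log2 fold change 0.41, SE 0.058). Ier3, an immediate early gene, had 589, 635 and 654 TPM in Ctrl and 435, 384 and 407 TPM in Nfkbiz KO (log2 fold change -0.72, SE 0.068), opposite to Egr1. Epha4 had few reads, 28, 13 and 22 in Ctrl and 7, 13 and 5 in Nfkbiz KO, and its log2 fold change of -1.35 no longer passed with DESeq2 or without Ctrl replicate 1, Ctrl replicate 3, Nfkbiz KO replicate 1 or Nfkbiz KO replicate 3 (adjusted p = 0.0641 to 0.173).

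Of 12 other inhibitors of the pathway, 5 passed as higher (Rasa1, Rasa3, Rasal2, Cbl and Ptpn1), none as lower and 7 did not pass, with a median of 0.06. The largest of these were genes of GTPase-activating proteins that switch RAS off. Rasal2 was at 6.46 ± 1.18 and 9.60 ± 0.655 TPM (log2 fold change 0.42), Rasa1 at 86.0 ± 8.59 and 119 ± 2.54 TPM (0.36) and Rasa3 at 58.7 ± 5.38 and 79.3 ± 2.12 TPM (0.33). The phosphatase gene Ptpn1 had a log2 fold change of 0.23 and lost its call without Nfkbiz KO replicate 1 or 3 (adjusted p = 0.0748 and 0.0511). Cbl lost its call in 6 of the 16 other settings, among them log2(TPM + 1) (adjusted p = 0.0812, limma). Nf1, which encodes the partner of Spred1, did not pass, with a 95% interval of -0.17 to 0.17 for its log2 fold change.

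Of 29 genes of the cascade and its adaptors, 6 passed as higher (Mras, Sos1, Gab1, Gab2, Iqgap1 and Lamtor3), 8 as lower (among them Ksr1, Mapk3, Shc1 and Rps6ka1) and 15 did not pass, with a median of 0.05. Sos1 and Gab1 each lost their call in 3 of the 16 other settings, and Shc1 lost its call in 2. Rps6ka1, which encodes the ERK-activated kinase RSK1, was the only gene of the lists past the study's thresholds, with 9.25, 7.59 and 7.02 TPM in Ctrl and 2.67, 2.68 and 2.40 TPM in Nfkbiz KO (log2 fold change -1.66, SE 0.13, adjusted p = 7.11e-07, edgeR). Lamtor3, a scaffold of MEK and ERK on late endosomes, had 17.0, 17.8 and 16.9 TPM in Ctrl and 30.6, 30.3 and 29.0 TPM in Nfkbiz KO (log2 fold change 0.63, SE 0.057). The scaffold gene Iqgap1 (0.56) and the adaptor gene Gab2 (0.48) were higher. Ksr1, the scaffold of RAF and MEK, was lower in counts (-0.47), but not past the threshold on log2(TPM + 1) (-0.30, adjusted p = 0.105, limma). Braf, Map2k1 and Map2k2 did not pass, while Mapk3, the gene of ERK1, was at 251 ± 5.58 and 223 ± 5.50 TPM (log2 fold change -0.27).

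Of 8 tested receptor tyrosine kinase genes, 2 passed as higher (Fgfr1 and Insr), 1 as lower (Igf1r) and 5 did not pass, with a median of 0.03. Their log2 fold changes were 0.18, 0.22 and -0.19, and each lost its call with at least 3 of the samples left out in turn. For Fgfr1 these were the 3 Nfkbiz KO samples (adjusted p = 0.0551 to 0.111), for Insr all but Ctrl replicate 2 (0.0909 to 0.124) and for Igf1r all but Ctrl replicate 3 (0.0659 to 0.115). Fgfr2, among the 5 that did not pass, had 761 to 1313 reads in each sample but at most 0.097 TPM. Most of its counted reads thus lay outside exons, and its test says little about its mRNA.

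**Figure D4:**
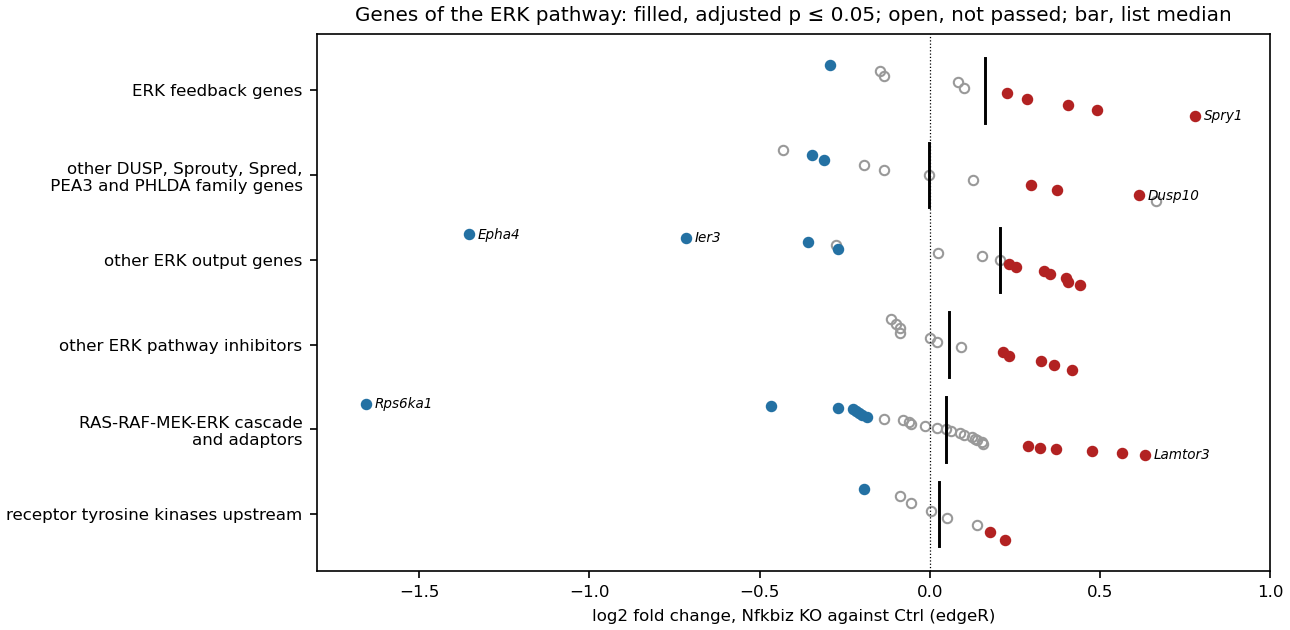
log2 fold change of each tested gene (x axis) in the feedback genes and the 5 other pathway lists (rows). Filled points passed (red higher, blue lower), open points did not, and the bar is the median of the list, 0.16 for the feedback genes and between -0.0027 and 0.21 for the others.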

How the data were processed

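RNA of 3 Ctrl and 3 Nfkbiz KO samples was analysed. The authors mapped paired reads with CLC Genomics Workbench to GRCm39, without regard to strand (the submitters' processing notes name GRCm38), and deposited raw counts of total and uniquely mapped reads per gene. The deposited TPM and RPKM values are based on exons and were written with decimal commas, which were converted. RPKM was used only to see which genes had no exon reads.

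Counts of 32219900 to 44927203 reads per sample were tested with edgeR 4.0.16 in R 4.3.3: TMM normalization, filterByExpr (minimum count 10, minimum total 15), quasi-likelihood test, Benjamini-Hochberg adjustment over 14419 genes. Exact permutation tests used CPM on the log2 scale. Alternatives were DESeq2 1.42.0, a likelihood-ratio test, other normalizations and filters, limma 3.58.1 on log2(TPM + 1) and log2(TPM + 0.1), unique reads, a replicate block, each sample left out, and the study's less stringent threshold. Scripts were tested on simulated data.

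The feedback genes and lists were chosen with earlier results of these data known. Named genes are the 10 feedback genes, Nfkbiz, list genes past the study's thresholds and up to 4 passing genes per list with the largest change, and other passing list genes are named without values, apart from some that are not reported here. Egr1, Nf1, Mapk3 and the other kinases named without a call were added after their values were seen. The limit given for Cbl was also added after its values were seen. The study's own comparison was not used, and its other experiments were not analysed here.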

Additional observations from a re-analysis of the deposited data

How the results depend on the processing

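Dusp5, Spry4 and Spred1 passed under all 16 other settings of the fit, and no feedback gene changed direction under any. Of 160 values of the 10 genes under these settings, 144 kept their side of the threshold, 12 lost the call and 4 gained it. Feedback genes that passed as lower numbered 2 when at least 1 CPM in 3 samples was required and 0 with limma on log2(TPM + 0.1). At the study's less stringent threshold 1 feedback gene was counted. In the 5 pathway lists, 5 genes passed as lower on log2(TPM + 1) and 5 on log2(TPM + 0.1), and over all genes tested 1310 and 1203 did. The cause was not tested. With each sample left out in turn, feedback genes that passed as higher numbered 3 to 5 (3 without Ctrl replicate 1 or any Nfkbiz KO replicate), and those as lower 1 to 3 (3 without Ctrl replicate 2, 2 without Ctrl replicate 3). Pathway genes numbered 17 to 26 higher and 10 to 18 lower, and all genes 1956 to 2870 higher and 1841 to 2663 lower. Samples with the same replicate number did not visibly deviate together (correlations of 0.0367, -0.0233 and 0.0256). With 3 samples per group, this cannot settle whether they were prepared in pairs. With a replicate block, 4 feedback genes passed as higher and 1 as lower (Spry1 was lost, adjusted p = 0.0581), and over all genes 2560 and 2527. Depth limits Spry1, Epha4 and the melanocyte markers, which had few reads.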
